A study of Mus musculus with 4 samples.

Results

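The genes described here make adenosine outside the cell, remove it, and set the level of cyclic AMP inside the cell. The set held 10 genes, chosen by name with earlier results of these data known. Shares of all genes set beside them below are therefore descriptive. Members were the ectoenzymes Entpd1 and Nt5e, the receptor gene Adora2a and the deaminase gene Ada. The others were the adenylate cyclase genes Adcy3, Adcy6 and Adcy7, and the phosphodiesterase genes Pde3b, Pde4b and Pde4d. A gene was measured where a probe of the array, meaning a set of oligonucleotides summarised into 1 value, carried its symbol alone, and 8 of the 10 genes met this, out of 22180 genes in all. Each of the 8 had 1 such probe. No probe carried the symbol of Adora2a in the annotation used here, and the probe that named Adcy3 also named Cenpo, so neither gene is given a value.

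The samples were regulatory T cells of mice, sorted 7 days after the animals received NP-OVA, a hapten coupled to ovalbumin, in complete Freund's adjuvant. The KO TFR sample held follicular regulatory T cells (PD1+CXCR5+YFP+CD4+) of Prdm1fl/flFoxP3YFP-Cre mice, and the WT TFR sample held the same gate from FoxP3YFP-Cre mice. The KO non-TFR and WT non-TFR samples held the CXCR5-YFP+CD4+ cells of these genotypes. All 4 groups therefore carried the FoxP3YFP-Cre allele, in which the Foxp3 gene drives YFP and the Cre recombinase, and the KO groups in addition had loxP-flanked Prdm1, the gene of the repressor Blimp-1. Not given in the sources used here are age, sex and the number of mice behind a sample. Each group was 1 array, so no difference below has a replicate check or a p-value.

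Regulatory T cells carry on their surface the ectonucleotidase CD39, which cuts extracellular ATP and ADP to AMP, and CD73, which cuts AMP to adenosine. Adenosine acts on other T cells mostly through the receptor that Adora2a encodes, which couples to a stimulatory G protein and so to adenylate cyclase, the enzyme that makes cyclic AMP. Cyclic AMP activates protein kinase A, which restrains T cell receptor signalling and phosphorylates the transcription factor CREB, and phosphodiesterases end the signal by hydrolysing cyclic AMP. Regulatory T cells are known for high cyclic AMP and low Pde3b, which Foxp3 represses.

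Levels are log2 intensities after quantile normalization of the 4 arrays, and a difference of 1 is 2-fold. Levels of different genes are not directly comparable on this array, so differences are taken within each gene across arrays. The limit given next applies the same value to all genes and is rough for that reason. No detection calls were given, and the median of all gene means, 5.91, served as a limit: 6 of the 8 genes had a mean above it, and 5 lay above it on every array. No fold is given where either value lay below 5.91. As checks of the samples, Prdm1 was at 7.32 in KO TFR and 8.21 in WT TFR cells, and at 7.59 in KO non-TFR and 7.80 in WT non-TFR cells. Which Prdm1 exons were deleted or read by the probe was not given in the sources used here, and signal outside the deleted part checks nothing. All 6 regulatory T cell markers examined lay above the limit on every array. Foxp3 lay between 11.87 and 12.45 and Cd4 between 11.02 and 11.33, and Cxcr5 and Pdcd1, which set the gate, were 1.49 and 1.72 higher in TFR cells than in non-TFR cells of the KO, and 1.46 and 2.41 higher in those of the WT. In bulk samples such as these, fewer cells of a type and less RNA per cell cannot be told apart.

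**Figure D1:**
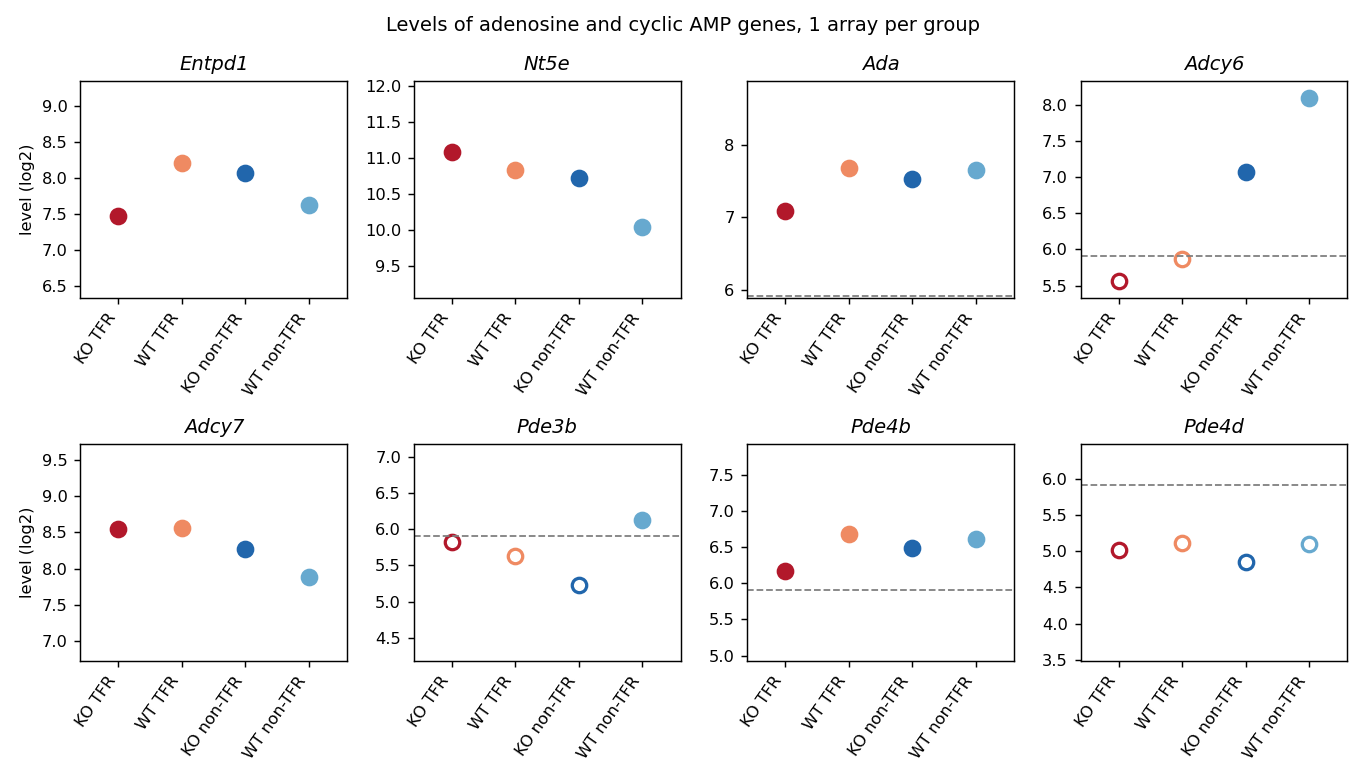
Level (log2 intensity after quantile normalization) of each measured gene in the KO TFR, WT TFR, KO non-TFR and WT non-TFR arrays, 1 array per point. Every panel spans 3 log2 units, the dashed line marks the limit of 5.91, and open points lie below it; Adcy6 is filled only in the non-TFR arrays, and the KO TFR array is the lowest for Entpd1, Ada, Adcy6 and Pde4b.

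Among the 8 genes, Adcy6 differed most over the arrays. The levels of Adcy6 spanned 2.53 and those of Nt5e 1.04, and the other 6 genes each spanned less than 2-fold. The WT TFR array was the highest of the 4 for 5 genes (Entpd1, Ada, Adcy7, Pde4b and Pde4d), with Pde4d below the limit throughout. The KO TFR array was the lowest for 4 genes (Entpd1, Ada, Adcy6 and Pde4b), with Adcy6 below the limit in both TFR arrays. It was the highest for Nt5e alone. How many of all genes were highest or lowest on each array was not counted, so these counts are not read as a trait of the set.

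Entpd1, which encodes CD39, had a level of 7.47 in KO TFR and 8.21 in WT TFR cells, and of 8.07 in KO non-TFR and 7.63 in WT non-TFR cells. The genotype order was thus opposite in the 2 populations. Within TFR cells the KO level was lower by 1.67-fold (difference -0.74), and 1.95% of the 11090 genes above the limit (expressed genes) were at least as far apart in that comparison. Within non-TFR cells the KO level was higher by 1.35-fold (difference 0.44), with 9.86% of expressed genes at least as far apart. Set against non-TFR cells, TFR cells were 0.60 lower in the KO and 0.58 higher in the WT on the log2 scale.

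The sequences before the 2 annotated starts of Entpd1 are shown because this gene had the most unlike genotype differences in the 2 populations. They are 250 bases up to the start, from RefSeq (GRCm38.p6), both on the + strand, at chr19:40612116-40612365 and chr19:40659520-40659769. Motifs were searched on both strands: the cyclic AMP response element TGACGTCA that CREB binds, its shorter form TGACG, which lies within it, and GTGAAAG, a core of Blimp-1 binding sites. Capitals mark matches.
Entpd1 first start: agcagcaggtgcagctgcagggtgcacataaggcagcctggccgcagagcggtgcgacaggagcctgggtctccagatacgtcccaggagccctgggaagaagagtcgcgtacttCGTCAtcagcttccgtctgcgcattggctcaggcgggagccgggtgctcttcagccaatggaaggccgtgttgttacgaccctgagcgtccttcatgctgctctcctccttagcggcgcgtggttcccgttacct
Entpd1 second start: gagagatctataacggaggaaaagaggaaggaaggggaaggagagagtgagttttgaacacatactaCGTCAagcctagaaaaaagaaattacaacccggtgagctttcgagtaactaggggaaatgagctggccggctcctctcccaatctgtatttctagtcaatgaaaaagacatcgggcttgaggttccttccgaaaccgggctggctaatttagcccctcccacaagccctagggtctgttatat
Each holds 1 short element, in the CGTCA orientation, beginning 135 bases before the first start and 183 bases before the second. Of the 10 genes, 7 had entries in the promoter table, 14 in all: Entpd1, Nt5e, Ada, Adcy3, Adcy7, Pde4b and Pde4d. The short element was in 4 of the 14 entries (both of Entpd1, 1 of Adcy7 and 1 of Pde4b), against 17.8% of 32851 promoters of the same length. The full element was in 0 of the 14, against 1.55% of all promoters, and the Blimp-1 core was in 1 (Adcy7), against 3.57%. These matches describe letters in a window and are not shown to be bound.

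Nt5e, which encodes CD73, was higher in TFR cells than in non-TFR cells of both genotypes and higher in KO than in WT cells of both populations. Its level was 11.08 in KO TFR and 10.72 in KO non-TFR cells (difference 0.36, 1.28-fold), and 10.84 in WT TFR and 10.05 in WT non-TFR cells (difference 0.79, 1.73-fold). In the WT, 8.82% of expressed genes separated the populations by at least as much, and in the KO 33.3%. The genotype difference was 0.25 in TFR cells (1.19-fold) and 0.68 in non-TFR cells (1.60-fold). The first was matched or passed by 27.4% of expressed genes and the second by 3.15%. The lowest array was WT non-TFR, and the other 3 arrays lay within 0.36 of each other. The genotype differences of the 2 ectoenzyme genes in TFR cells therefore had opposite signs: in the KO, Entpd1 was lower than in the WT and Nt5e was higher. That of Nt5e was of a size common among expressed genes. The expressed genes with the most similar profile to Nt5e, by Euclidean distance of levels centred on each gene's mean over the 4 arrays, were Ssx2ip (0.081), Cep83os (0.082) and Zfp523 (0.088).

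Ada encodes adenosine deaminase, which converts adenosine to inosine. Its level was 7.09 in KO TFR and 7.68 in WT TFR cells, and 7.53 in KO non-TFR and 7.65 in WT non-TFR cells. The KO TFR array stood below the other 3, which lay closer to each other than to it. In TFR cells the KO value was 1.501-fold lower (difference -0.59), with 3.72% of expressed genes at least as far apart, and in non-TFR cells the difference of -0.12 was matched or passed by 56.8% of them. TFR and non-TFR cells of the WT differed by 0.03, and those of the KO by -0.44.

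Adcy6 and Adcy7 encode membrane adenylate cyclases, and they were arranged in opposite order between the populations. Adcy6 was at 5.56 in KO TFR and 7.06 in KO non-TFR cells, and at 5.87 in WT TFR and 8.09 in WT non-TFR cells. Both TFR values lay below the limit of 5.91 and both non-TFR values above it. The difference between TFR and non-TFR cells was -1.50 in the KO and -2.22 in the WT, and 1.49% and 0.61% of expressed genes were at least as far apart. Since the TFR values were not shown to be above background, these differences can be compressed and no fold is given. Within non-TFR cells, where both values were above the limit, Adcy6 was 2.04-fold lower in the KO (difference -1.03), and 0.81% of expressed genes were at least as far apart. The TFR arrays differed by -0.30, on values not shown to be above background. Whether the genotype difference extends to TFR cells was therefore not shown. The nearest profiles to that of Adcy6 among expressed genes were those of Sorcs2 (distance 0.15), Ms4a4c (0.32) and Bambi (0.34). Sorcs2, a sortilin family receptor, was at 5.89, just below the limit, in KO TFR, 6.37 in WT TFR, 7.53 in KO non-TFR and 8.44 in WT non-TFR cells.

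Adcy7, the cyclase best known from blood cells, was at 8.54 in KO TFR and 8.27 in KO non-TFR cells, and at 8.56 in WT TFR and 7.89 in WT non-TFR cells. It was therefore 1.21-fold higher in TFR cells than in non-TFR cells of the KO (difference 0.27) and 1.60-fold higher in those of the WT (difference 0.68). In the WT 12.4% of expressed genes differed by at least as much, and in the KO 45.2%. The TFR arrays of the 2 genotypes differed by -0.02, whereas KO non-TFR cells were 0.39 above WT non-TFR cells (1.31-fold). The entry before the first of its 3 annotated starts is shown because it was the one with the Blimp-1 core among the 14, at chr8:88282742-88282991 on the + strand (RefSeq, GRCm38.p6). Capitals mark CTTTCAC, the reverse complement of GTGAAAG, beginning 150 bases before the start, and a CGTCA match 28 bases before it.
Adcy7 first start: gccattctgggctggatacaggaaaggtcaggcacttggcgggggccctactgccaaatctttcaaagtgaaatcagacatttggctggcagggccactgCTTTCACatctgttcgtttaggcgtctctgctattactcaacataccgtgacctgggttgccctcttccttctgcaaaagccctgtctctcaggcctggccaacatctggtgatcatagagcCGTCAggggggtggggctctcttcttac

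Among the phosphodiesterase genes, Pde4b alone had a mean above the limit, and none of the 3 was 2-fold apart in any comparison. Pde3b, the enzyme inhibited by cyclic GMP, was at 5.83 in KO TFR and 5.63 in WT TFR cells, and at 5.23 in KO non-TFR and 6.13 in WT non-TFR cells. Only the WT non-TFR value exceeded the limit. The genotype difference was 0.19 in TFR cells and -0.90 in non-TFR cells, of opposite sign, but 3 of the 4 values were not shown to be above background. Pde4b, a cyclic AMP specific enzyme, was at 6.17 in KO TFR and 6.69 in WT TFR cells, and at 6.49 in KO non-TFR and 6.62 in WT non-TFR cells. The KO TFR array was again the lowest, 1.43-fold below WT TFR cells (difference -0.52, with 5.37% of expressed genes at least as far apart), in the same order of arrays as Ada. Pde4d, a related cyclic AMP specific enzyme, lay between 4.85 and 5.12 on all arrays, below the limit throughout, so differences in it could not be measured.

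**Figure D2:**
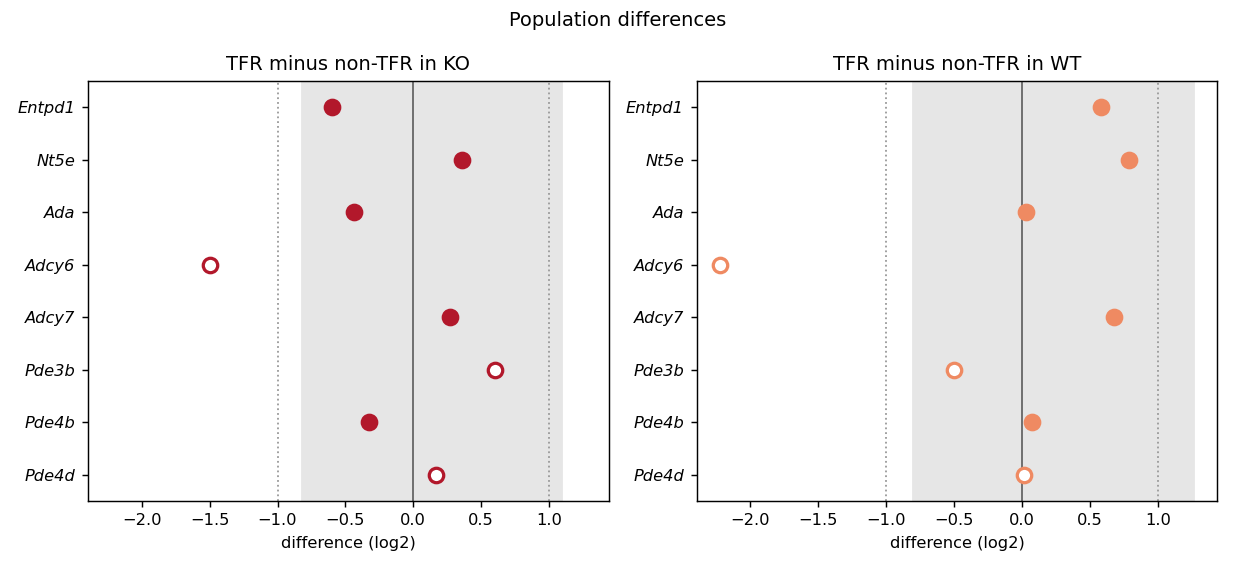
Difference in level (log2) between TFR and non-TFR cells of the KO (left) and the WT (right), 1 pair of arrays per panel. Grey bands hold the middle 95% of expressed genes, dotted lines mark 2-fold, and open points have a value below 5.91; Adcy6 lies at -1.50 and -2.22, outside both bands.

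Between TFR and non-TFR cells, Adcy6 was the only one of the 8 genes at least 2-fold apart, in both genotypes. In the KO 4 genes were higher and 4 lower, with a median of -0.08, and 1.18% of all measured genes were at least 2-fold lower and 2.23% at least 2-fold higher. In the WT 6 were higher and 2 lower, with a median of 0.05, against 1.18% of all measured genes at least 2-fold lower and 2.69% at least 2-fold higher. Of those 6, Ada, Pde4b and Pde4d lay within 0.07 of 0 and turned negative when quantile normalization used the probes with 1 gene only. The median of expressed genes was 0.01 in the KO and 0.02 in the WT, and 51.6% and 52.4% of them were higher in TFR cells. Entpd1 changed sign between the genotypes, and Pde3b did so below the limit, at 0.60 in the KO and -0.50 in the WT. Ada (-0.44 in the KO, 0.03 in the WT) and Pde4b (-0.32 in the KO, 0.07 in the WT) also lay on opposite sides of 0, with WT differences close to 0. Cell division genes moved with the population: all 7 measured cell cycle markers were at least 2-fold higher in TFR cells of each genotype, and their mean level was 9.29 in KO TFR and 7.06 in KO non-TFR cells, and 9.22 in WT TFR and 5.90 in WT non-TFR cells. All 7 lay above the limit in both TFR arrays, 5 in KO non-TFR and 3 in WT non-TFR cells. The B cell marker Cd22 was 2.22 higher in TFR cells of the KO and 2.28 higher in those of the WT, whereas the other expressed B cell marker, Cd79b, differed by -0.16 and 0.33. Ms4a1 (-0.09 in the KO, -0.10 in the WT), Cd79a (-0.27 and -0.10) and Fcer2a (0.03 and 0.13) lay below the limit on every array. Pax5 was 0.92 higher in TFR cells of the KO and 0.64 higher in those of the WT, and lay above the limit in KO TFR cells alone (6.10). Of the 6 measured B cell markers 3 lay above the limit in KO TFR cells and 2 in each of the other arrays, and none of the 8 myeloid markers did so on any array. Cd8b1, from the markers of CD8 T cells, lay between 8.73 and 9.42, and the other CD8 marker, Cd8a, below the limit. The NK cell marker Eomes was 0.17 higher in TFR cells of the KO and 0.37 in those of the WT. Klrb1c (0.37 and 1.08 higher) passed the limit in KO TFR cells alone (6.12), and Ncr1 nowhere. Of plasma cell markers, Sdc1 (0.82 and 0.79 higher) passed it in TFR cells alone. Mzb1 differed by -0.40 and -0.38 and Xbp1 by 0.14 and 0.03, and Jchain lay below it. The platelet marker Itga2b differed by -0.11 and 0.33, with Pf4 and Ppbp below the limit. The part of these in the differences of the adenosine and cyclic AMP genes was not tested.

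**Figure D3:**
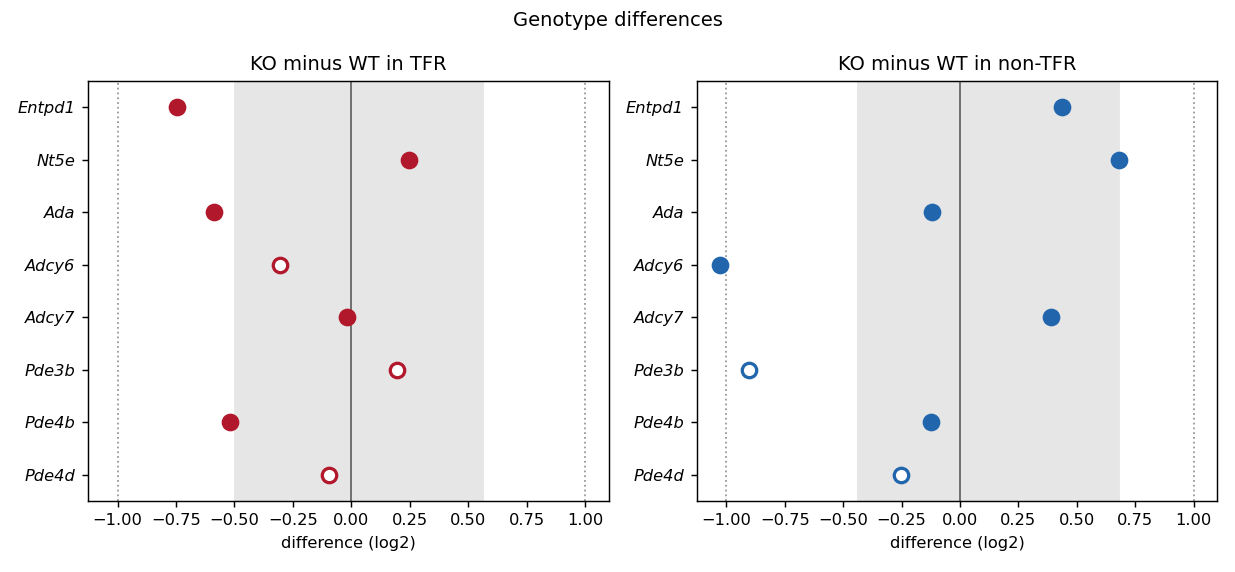
Difference in level (log2) between KO and WT in TFR cells (left) and in non-TFR cells (right), 1 pair of arrays per panel. Grey bands hold the middle 95% of expressed genes, dotted lines mark 2-fold, and open points have a value below 5.91; Entpd1, Ada and Pde4b lie below the band in TFR cells, and Adcy6 and Pde3b do so in non-TFR cells.

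Between the genotypes in TFR cells, 6 of the 8 genes were lower in the KO and 2 (Nt5e and Pde3b) higher, with a median of -0.20, against 0.02 for expressed genes. Of expressed genes 46.1% were lower. The 6 include Adcy7 at -0.02, and Adcy6 and Pde4d with both TFR values below the limit. None of the 8 genes was 2-fold apart, where 0.162% of all measured genes were at least 2-fold lower and 0.289% at least 2-fold higher. Entpd1, Ada and Pde4b lay below the middle 95% of expressed genes, which ran from -0.50 to 0.56. In non-TFR cells 5 genes were lower in the KO and 3 (Entpd1, Nt5e and Adcy7) higher, with a median of -0.12, against 0.03 for expressed genes. Of expressed genes 44.2% were lower. Adcy6 was the 1 gene at least 2-fold lower, as were 0.0766% of all measured genes, with 0.433% at least 2-fold higher. It and Pde3b lay below the range of -0.44 to 0.68. In non-TFR cells the 7 cell cycle markers were all higher in the KO, 5 of them at least 2-fold, though only 3 of the 7 lay above the limit in WT non-TFR cells. In TFR cells 5 were higher and 2 lower with none 2-fold apart. Of the 6 regulatory T cell markers, 3 were lower in KO than in WT TFR cells: Foxp3 (-0.49), Il2ra (-0.67) and Ctla4 (-0.29). The other 3 were higher, Cd4 by 0.10 and Cd3e and Ikzf2 by 0.12 each. In non-TFR cells 5 of the 6 were higher in the KO, with Foxp3 at -0.02 and Il2ra at 0.07. Cd22 was higher in the KO by 1.00 in TFR cells and 1.06 in non-TFR cells, and Cd79b differed by -0.23 and 0.27. Eomes differed by -0.56 and -0.35, and Klrb1c, mostly below the limit, by 0.27 and 0.98. The gate genes were also higher in the KO, Pdcd1 by 0.82 in TFR cells and 1.52 in non-TFR cells, and Cxcr5 by 0.87 and 0.84. The part of these genes in the differences was not tested.

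The genotype difference itself differed between the populations most for Entpd1, by -1.18 (TFR minus non-TFR), with 0.39% of expressed genes at least as far apart. It differed by 1.10 for Pde3b, on values mostly below the limit, by 0.72 for Adcy6, for which both TFR values were below it, and by -0.47 to 0.16 for the other 5 genes. Entpd1 and Pde3b had opposite signs in the populations and differed by at least 0.5, as did 7.1% of expressed genes, a set that leaves out Pde3b. These 4 comparisons share arrays, and the contrast of a pair of differences rests on 4 single arrays.

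**Figure D4:**
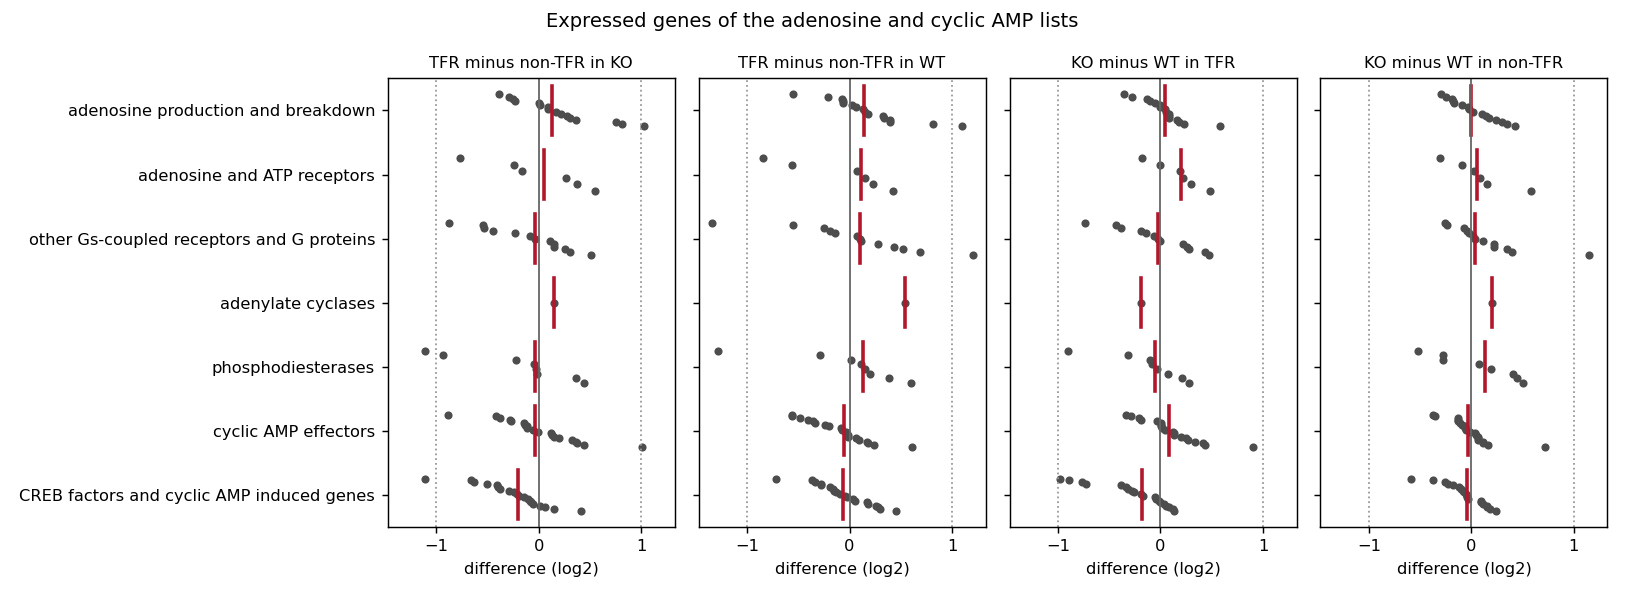
Difference in level (log2) of the 84 expressed genes of the 7 lists around the adenosine and cyclic AMP genes, 1 point per gene, in the 4 comparisons. Red bars are list medians and dotted lines mark 2-fold; at most 2 genes in each direction pass 2-fold in a panel.

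Beyond the 8 genes, 7 lists of genes of the same pathway were examined, with 152 genes named, 135 measured and 84 expressed. Few of them were 2-fold apart. In TFR against non-TFR cells 2 were at least 2-fold higher and 2 lower in the KO, where 3.03% of expressed genes were higher and 1.37% lower, and 2 and 2 in the WT, where 4.13% were higher and 1.36% lower. In KO against WT, 0 were 2-fold apart in TFR cells (0.442% of expressed genes were higher and 0.234% lower), and in non-TFR cells 1 was higher and 0 lower (0.775% and 0.126%). The median difference of the 84 genes was -0.05 and 0.03 between the populations of the KO and the WT, and 0.00 between the genotypes in both populations.

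Among genes that make, move or remove adenosine, Ahcy, which releases adenosine from S-adenosylhomocysteine, was 1.03 higher in TFR cells than in non-TFR cells of the KO and 1.09 higher in those of the WT. These are values of the brighter of its 2 probes, and with the mean of probes Ahcy no longer counted as 2-fold higher in either genotype. Slc29a1, the equilibrative nucleoside transporter, was 0.76 higher in the KO and 0.81 higher in the WT, again by the brighter of 2 probes. Pnp, the purine nucleoside phosphorylase that acts on inosine after Ada, was 0.81 and 0.40 higher, and the AMP deaminase Ampd3 was 0.38 lower in the KO and 0.55 lower in the WT. Of the 16 expressed genes of this list, 12 were higher in TFR cells of the KO and 11 in those of the WT, with medians of 0.13 and 0.14. Of all expressed genes 51.6% were higher in TFR cells of the KO and 52.4% in those of the WT, with medians of 0.01 and 0.02. Acpp, a phosphatase that can make adenosine from AMP, was 0.58 higher in KO than in WT TFR cells and 0.30 higher in KO than in WT non-TFR cells. Alpl, tissue nonspecific alkaline phosphatase, was 0.18 and 0.42 higher in these comparisons.

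Receptors for adenosine and ATP were mostly dim, with 6 of 16 measured genes expressed. Adora3 was the 1 adenosine receptor gene measured, and it lay between 4.29 and 4.54 on all arrays, below the limit. P2rx7, the ATP-gated channel through which ATP can kill regulatory T cells, was at 10.82 in KO TFR and 10.33 in WT TFR cells, and at 10.27 in KO non-TFR and 10.19 in WT non-TFR cells. The KO TFR array was thus 0.48 above the next. P2rx4, another ATP-gated channel, was 0.37 higher in TFR cells than in non-TFR cells of the KO and 0.07 higher in those of the WT. P2ry10, listed here with the P2Y family though known as a lysophospholipid receptor, was 0.77 lower in TFR cells of the KO and 0.56 lower in those of the WT. P2ry14, a receptor for UDP-glucose, was 0.24 lower in the KO and 0.84 lower in the WT, with 1 of its 4 values below the limit. P2rx5 was 0.58 higher in KO than in WT non-TFR cells, and P2ry6, a receptor for UDP, was 0.27 higher in TFR cells of the KO and 0.23 higher in those of the WT. The other 9, P2rx1, P2rx2, P2rx3, P2rx6, P2ry1, P2ry2, P2ry4, P2ry12 and P2ry13, had means below the limit.

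Other receptors that couple to adenylate cyclase gave some of the widest differences in the lists. Ptger2, a receptor for prostaglandin E2, was at 8.87 in KO TFR and 8.61 in WT TFR cells, and at 8.56 in KO non-TFR and 7.41 in WT non-TFR cells. The WT non-TFR array stood apart below the other 3, and the gene was 1.15 higher in KO than in WT non-TFR cells and 1.20 higher in TFR cells than in non-TFR cells of the WT. Ptger4, a second prostaglandin E2 receptor, was at 10.23 in KO TFR and 10.96 in WT TFR cells, and at 10.67 in KO non-TFR and 10.44 in WT non-TFR cells. Its order of arrays was that of Entpd1: lower in the KO in TFR cells by 0.73 and higher in the KO in non-TFR cells by 0.22. Vipr1, a receptor for vasoactive intestinal peptide, was 0.87 lower in TFR cells than in non-TFR cells of the KO and 1.34 lower in those of the WT. Gpr65, an acid-sensing receptor, was 0.38 lower in KO than in WT TFR cells and 0.23 higher in KO than in WT non-TFR cells. The prostacyclin receptor Ptgir was 0.15 higher in TFR cells of the KO and 0.69 higher in those of the WT, and the dopamine receptor Drd5 was 0.54 lower in the KO and 0.55 lower in the WT.

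Of 7 other adenylate cyclase genes, all measured, Adcy9 alone was expressed, with its WT non-TFR value of 5.90 just below the limit, and it was 0.15 higher in TFR cells than in non-TFR cells of the KO and 0.54 higher in those of the WT. Of 17 other phosphodiesterase genes 8 were expressed. Pde2a, which hydrolyses cyclic AMP and cyclic GMP, was at 8.39 in KO TFR and 9.49 in KO non-TFR cells, and at 8.49 in WT TFR and 9.77 in WT non-TFR cells. Among the 8 expressed ones it was the 1 at least 2-fold apart, lower in TFR cells by 1.10 in the KO and 1.28 in the WT. Pde8a, a cyclic AMP specific enzyme of T cells, was at 5.90 in KO TFR and 6.80 in WT TFR cells, and at 6.83 in KO non-TFR and 6.42 in WT non-TFR cells, so that, with the KO TFR value just below the limit, it was lower in the KO in TFR cells by 0.90 and higher in the KO in non-TFR cells by 0.41. Pde11a had the same signs at -0.31 and 0.51. Pde1b (0.21 in TFR cells, -0.52 in non-TFR cells) and Pde4c (0.07 and -0.28) had the opposite ones, and Pde7a was 0.27 and 0.44 higher in the KO.

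Downstream of cyclic AMP, the list of effectors held 20 expressed genes, of which 15 were higher in KO than in WT TFR cells (median 0.08) and 9 in KO than in WT non-TFR cells (median -0.03). Of all expressed genes 53.8% were higher in the KO in TFR cells (median 0.02) and 55.7% in non-TFR cells (median 0.03). The protein kinase A regulatory subunit gene Prkar2a was 1.00 higher in TFR cells than in non-TFR cells of the KO and 0.61 higher in those of the WT, its KO non-TFR value of 5.89 lying below the limit, and Prkar1a was 0.45 and 0.09 higher. Prkar1a was also 0.42 higher in KO than in WT TFR cells, against 0.06 in non-TFR cells. Popdc2, a membrane protein that binds cyclic AMP, was 0.91 higher in KO than in WT TFR cells and 0.72 higher in KO than in WT non-TFR cells. The anchoring protein gene Akap2 was 0.88 lower in TFR cells than in non-TFR cells of the KO and 0.56 lower in those of the WT, its KO TFR value of 5.85 lying below the limit. Akap10 was 0.38 lower in the KO and 0.56 lower in the WT, and Akap5 was 0.11 and 0.49 lower. Of the 20 expressed genes of CREB factors and of genes that cyclic AMP can induce, 14 were lower in KO than in WT TFR cells, with a median of -0.18, against 46.1% of all expressed genes. They included the orphan nuclear receptors Nr4a1 (-0.98) and Nr4a3 (-0.76), the phosphatase Dusp4 (-0.89), the salt-inducible kinase Sik1 (-0.73) and the CREB coactivator Crtc1 (-0.32). In non-TFR cells 13 of the 20 were lower in the KO with a median of -0.05, against 44.2% of all expressed genes, and Nr4a1 (-0.59) and Sik1 (-0.37) were among them, whereas Crtc1 was at 0.24. Fos differed by -0.01 in TFR and 0.15 in non-TFR cells. Between the populations of the KO, 16 of the 20 were lower on the TFR array and 4 higher (median -0.20), against 48.4% of expressed genes lower. Between those of the WT, 12 were lower and 8 higher (median -0.07), against 47.5%. As TFR minus non-TFR, Nr4a1 differed by -1.11 in the KO, past 2-fold, and by -0.72 in the WT, and Fos by -0.50 and -0.33. T cell receptor signalling also induces Nr4a1, Nr4a3 and Dusp4, so this list is not specific to cyclic AMP.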

How the data were processed

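Per the labels, RNA of 4 sorted samples was read on the Affymetrix Mouse Gene 2.0 ST array. The authors deposited 1 log2 value per probe and array for 41345 probes. Their range (2.23 to 13.8) was the basis for taking them as log2. The submitters' processing notes name MAS5; its role, background correction and summarization were not given in the sources used here. Deposited array medians spanned 0.105, and differences between TFR and non-TFR cells had a median of 0.14 in the KO and 0.13 in the WT over expressed genes. The arrays were therefore quantile normalized over all probes (limma 3.58.1, R 4.3.3), which also takes out any true shift that most genes share. The number of arrays limits the precision.

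Platform annotation gave 23521 probes 1 gene symbol, 1814 several and 16010 none. For a gene with several probes the one with the highest mean was used. Among the pathway genes named, Ahcy, Slc29a1, Alpl, Drd5 and Pde7a had 2 probes each, so their values depend on this choice. The genes named were the measured members, all adenosine and ATP receptors, and per pathway list up to 6 expressed genes with the largest difference in any comparison, with the check genes, the leading marker and the 3 nearest profiles. Members and lists were chosen with earlier results of these data known. Differences of array pairs were counted at 2-fold without a test. An additive model of population and genotype, whose residual would be the difference between genotype effects, was not used. The steps were tested on simulated data.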

Additional observations from a re-analysis of the deposited data

Results flagged for a closer look

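For 2 genes KO minus WT had opposite signs in TFR and non-TFR cells and differed by at least 0.5 between them. Of expressed genes 7.1% met the same rule, a set that leaves out Pde3b, whose mean lay below the limit. The contrast was not tested, since each group was 1 array. Entpd1 was at -0.74 in TFR cells and 0.44 in non-TFR cells, a contrast of -1.18. Pde3b was at 0.19 in TFR cells and -0.90 in non-TFR cells, a contrast of 1.10, with 3 of its 4 values below the limit of 5.91.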

How the results depend on the processing

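Each group was 1 array, so leaving out an array was not possible. No paired analysis was possible because no group had a second sample. All 32 differences of the measured genes were recomputed under 4 other settings: values as deposited, cyclic loess, 75th percentile centring, and quantile normalization over probes with 1 gene. All 128 values kept their side of the 2-fold limit, and 125 kept their sign. The mean of a gene's probes and a floor at the 25th percentile could not move these genes, which have 1 probe each and lie above that floor. The 3 exceptions, under quantile normalization over probes with 1 gene, were the TFR minus non-TFR differences in the WT of Ada (-0.05), Pde4b (-0.02) and Pde4d (-0.02). Adcy6 in TFR against non-TFR cells ran from -1.52 to -1.37 in the KO and from -2.27 to -2.12 in the WT, and its genotype difference in non-TFR cells from -1.08 to -1.03. Under each of the 4 settings 2 genes had opposite genotype differences at least 0.5 apart. With quantile normalization over all probes 7.1% of expressed genes did so. With a limit of 1.5-fold, the measured genes past it in TFR against non-TFR cells were 1 higher and 2 lower in the KO, and 2 higher and 1 lower (Adcy6) in the WT; in KO against WT they were 2 lower in TFR cells, and 1 higher and 2 lower in non-TFR cells. With that limit the pathway genes were 4 higher and 8 lower between the populations of the KO, 6 higher and 4 lower between those of the WT, 1 higher and 6 lower between genotypes in TFR cells, and 2 higher and 1 lower in non-TFR cells. The share of all genes past 1.5-fold was not computed, so these counts of measured and pathway genes have no background beside them. At 2-fold, pathway genes in TFR against non-TFR cells of the KO numbered 1 lower as deposited, 1 higher with 75th percentile centring, 0 higher with quantile normalization over probes with 1 gene and 1 higher with the mean of probes; those of the WT numbered 1 higher under the last 2 settings. Over genes above the 75th percentile, 0 were higher in the KO, and 1 was higher and 1 lower in the WT. Values below 5.91, which were not shown to be above background, limit Adcy6 in TFR cells, Pde3b and Pde4d.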
